A study of Homo sapiens with 6 samples.

Results

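The promoters of CACTIN, C19orf48, CAPRIN1, REXO1 and the divergent gene pair GTF3C4 and DDX31 hold 5 of the 11 WT peaks of highest fold enrichment in an anti-FLAG ChIP-seq experiment on the zinc finger protein ZNF335. The 6 genes were chosen from those at WT peaks of high fold (the authors' value), ranked 1, 2, 4, 10 and 11. Peaks ranked between these are not members, so the set is not a full list of the strongest peaks. Their peaks were found as those overlapping, by at least 1 bp, 5 stated promoter intervals on hg19. The intervals caught 6 of the 634 peaks of the WT list, 5 of the 174 peaks of the bloto list and 0 of the 1 peak of the control list. Because the WT values chose the sites, these values and the WT to bloto comparison are given as descriptions, with no test.

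The cells were Jurkat T-REx, human leukaemic T cells whose tetracycline-responsive repressor lets doxycycline turn on a transfected gene. One line carried ZNF335 with a 3xFLAG tag (WT), another carried the tagged protein with the substitution R1092W (bloto), and the control line made no tagged protein. Tagged lines were single clones of stable transfectants chosen for a co-expressed green fluorescent reporter, and the protocol has induction with doxycycline overnight. The labels name no change to the cells' own ZNF335 gene. Each condition had 1 ChIP library and 1 input library, so nothing below has a replicate error, and clone, library and substitution cannot be told apart. The depth of ChIP reads recovered from the deposited peak values was 8.67 reads per kb in the WT library and 9.28 in the bloto library, a bloto to WT depth of 1.07.

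ZNF335, named Zfp335 in mouse, is a transcription factor of the C2H2 zinc finger class that binds near the starts of genes and is known to act with complexes that methylate histone H3. Loss of its function disturbs the growth of neural progenitors, and the bloto allele is known from mice with a defect in T cell maturation. In ChIP-seq, DNA bound by the tagged protein is pulled down and sequenced, and a peak is a stretch where reads pile up above the input background. The position of highest pile-up is the summit.

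Several of the members' products are known to work on RNA, which is given as background and was not tested as a theme of ZNF335 sites. CACTIN is a conserved protein of the spliceosome that is also known as an inhibitor of NF-kappaB signalling. CAPRIN1 is an RNA-binding protein that partners G3BP1 in stress granules. REXO1 belongs to a family of RNA exonucleases and binds elongin A. GTF3C4 is a subunit of TFIIIC, the factor that recruits RNA polymerase III to tRNA genes, and DDX31 is a nucleolar DEAD-box RNA helicase. C19orf48 is listed by RefSeq as the transcribed pseudogene C19orf48P, and the 3 small nucleolar RNA genes SNORD88A, SNORD88B and SNORD88C lie within it.

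RefSeq promoter windows, each running from 250 bases before to 50 after an annotated start, were at hand for 5 of the 6 genes on build GRCh38.p14. That build differs from the hg19 of the peaks, so positions of windows and peaks are not to be set against each other, and the distance of a summit from a gene's end was not analysed here. The sequences are shown to let the promoters of these genes be read side by side. For 3 genes the 250 bases before the start are given 5′ to 3′ on the gene's strand, at chr19:3626791-3627040 (minus) for CACTIN, chr11:34051481-34051730 (plus) for CAPRIN1 and chr19:1848484-1848733 (minus) for REXO1. For the divergent pair, a stretch of 30 bases on the DDX31 strand at chr9:132670132-132670161 (minus) is given. Capitals mark GGCAGCCC or its reverse complement GGGCTGCC, the only word of 8 bases that all 4 promoters held on either strand when the overlapping windows of GTF3C4 and DDX31 were taken as a single promoter. The DDX31 window holds it and the GTF3C4 window does not.
CACTIN: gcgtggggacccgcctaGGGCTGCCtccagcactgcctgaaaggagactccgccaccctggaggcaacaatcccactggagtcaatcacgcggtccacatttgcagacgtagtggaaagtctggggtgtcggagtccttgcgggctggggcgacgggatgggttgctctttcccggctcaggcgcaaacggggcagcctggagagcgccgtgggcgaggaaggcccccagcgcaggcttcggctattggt
CAPRIN1: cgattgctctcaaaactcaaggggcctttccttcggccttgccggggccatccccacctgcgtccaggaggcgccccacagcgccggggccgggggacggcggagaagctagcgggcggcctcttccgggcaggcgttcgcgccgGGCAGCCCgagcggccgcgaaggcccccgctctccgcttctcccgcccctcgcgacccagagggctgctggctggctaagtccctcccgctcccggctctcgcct
REXO1: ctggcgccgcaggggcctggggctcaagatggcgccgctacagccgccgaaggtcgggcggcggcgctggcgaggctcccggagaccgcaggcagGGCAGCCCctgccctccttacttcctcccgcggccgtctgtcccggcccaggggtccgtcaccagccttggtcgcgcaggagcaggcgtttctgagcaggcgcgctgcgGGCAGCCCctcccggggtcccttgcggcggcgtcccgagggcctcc
DDX31 side of the pair: gacgcagagagGGGCTGCCaccaggcgggg

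The shared word was found by listing every word of 8 bases in the 4 promoters, 1215 different ones, after the sequences were seen, so that its sharing is a description. The promoters searched were 3 windows of 300 bases and the 449 bases that the windows of the pair cover together. The word occurred in 4.20% of all 35116 RefSeq windows of 300 bases, and in 7.41% of those with a GC content of at least 67%, the lowest among the members. It began 233 bases before the start of CACTIN, 105 before that of CAPRIN1, 155 and 46 before that of REXO1 and 167 before that of DDX31, so its place was not fixed. Of words of 9 bases, 0 were in all 4. The windows were rich in GC, with 67% for CACTIN, 70.7% for DDX31, 73.3% for GTF3C4, 74% for CAPRIN1 and 77.3% for REXO1, against a median of 58.7% over all windows. They held 24 to 38 CpG dinucleotides each, against a median of 14.

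Known promoter words differed between the members. The GC box GGGCGG, or its reverse complement, was in the windows of CAPRIN1, REXO1, GTF3C4 and DDX31, in 44.95% of all windows and in 89.5% of those with a GC content of at least 67%. CACTIN lacked it and was the only member window with the CCAAT box, which 34.6% of all windows and 24.8% of the GC-rich ones held. The ETS word CCGGAAG was in CAPRIN1, GTF3C4 and DDX31 and in 10.3% of all and 14.3% of GC-rich windows. The overlapping GTF3C4 and DDX31 windows hold the same occurrence of the ETS word, and they also have a GC box in common. REXO1 alone held AAGATGGC, a core of the YY1 motif found in 2.89% and 3.27%, beginning 225 bases before its start and again after the start. The TATA box TATAAA and the cyclic AMP response element TGACGTCA were in 0 of the 5 member windows, in 11.5% and 1.85% of all windows, and in 1.85% and 2.53% of the GC-rich ones. All words were searched on both strands.

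RefSeq gave 2 windows for GTF3C4 and 3 for DDX31, and the pair on opposite strands that shared the most bases was used throughout. In that pair the genes are transcribed away from each other from starts 52 bp apart, so the windows share 151 bases. Words and base content of the other windows of these genes are not given here. The 51 bases between the starts, chr9:132669984-132670034 on GRCh38.p14, hold the E-box CACGTG, in capitals below on the GTF3C4 strand, a word present in 7.26% of all and 10.2% of GC-rich windows. A ChIP peak there cannot be assigned to either gene of the pair.
Between the DDX31 and GTF3C4 starts: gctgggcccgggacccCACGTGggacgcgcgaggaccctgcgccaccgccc

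At the CACTIN promoter, the WT list had its highest fold. The WT peak chr19:3626622-3627319 on hg19 was 698 bp wide with its summit at 3626934, and had a fold of 30.7 over the local background of its own library, the authors' value. The summit was covered by 87 WT reads over a background of 1.71 reads. The bloto peak chr19:3626724-3627057 was 334 bp wide and had a fold of 13.3, with 54 reads over a background of 3.12. It lay inside the WT peak, and its summit at 3626911 was 23 bp from that of WT, the largest such distance among the 5 sites. In fold the CACTIN peak was 1st of 634 in the WT list and 26th of 174 in the bloto list, whereas by reads at the summit it was 5th and 9th.

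CACTIN was the only one of the 5 intervals with a second WT peak. This peak, chr19:3626280-3626494, began outside the interval, ended 127 bp before the main peak and had its summit 563 bp from the main summit. It was weak, with a fold of 3.89, 610th of 634, a −log10 q of 2.03, and 17 reads over a background of 3.50. The bloto list had no peak there. Around each of the other 4 main peaks, the WT list held 0 further summits within 10 kb. Their nearest WT peaks lay 53.6 kb away for CAPRIN1, 176 kb for REXO1, 926 kb for C19orf48 and 3714 kb for the divergent pair.

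C19orf48 had the next highest WT fold, and of the 5 sites its bloto peak was closest to the WT peak in width, at 98.6%. The WT peak chr19:51307615-51308312 was 698 bp wide, had a fold of 30.4 and 92 reads over a background of 1.89. By −log10 p, at 101, it was the 1st of the WT list, and by reads it was the 2nd. The bloto peak chr19:51307633-51308320 was 688 bp wide, had a fold of 18.4 and 53 reads over a background of 1.94. Both summits were at 51308025. The bloto peak thus covered almost the same stretch, extending 8 bp past the WT peak, and it was 4th by fold in its list.

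CAPRIN1 was among the first 4 peaks by fold in both lists. The WT peak chr11:34072689-34073426 was 738 bp wide and had a fold of 24.5 with 68 reads over a background of 1.65, the lowest WT background of the 5 sites. The bloto peak chr11:34072828-34073442 was 615 bp wide and had a fold of 18.5 with 49 reads over a background of 1.71. The summits, 34073107 and 34073108, were 1 bp apart. The peak was 4th by fold among WT peaks and 3rd among bloto peaks, but by reads only 48th and 23rd. The single control peak, the only one on chromosome 11 or elsewhere, lay 32115 kb from the interval.

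REXO1 had a narrower peak than the other members in WT. The WT peak chr19:1848299-1848868 was 570 bp wide and had a fold of 21.3 with 63 reads over a background of 1.84. The bloto peak chr19:1848412-1848751 was 340 bp wide and had a fold of 11.1 with 36 reads over a background of 2.34. Both summits were at 1848612. By fold the peak was 10th in the WT list and 46th in the bloto list, and by reads 66th and 78th.

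The promoter between GTF3C4 and DDX31 had the widest of the 5 peaks in WT and the lowest of the 5 folds in both lists. The WT peak chr9:135545179-135546277 was 1099 bp wide, the 9th widest of the WT list, with the summit at 135545742, 563 bases from its lower and 535 from its upper end. Its fold was 20.9, with 60 reads over a background of 1.76. The bloto peak chr9:135545450-135545840 was 391 bp wide, 35.6% of the WT width, and its summit at 135545740 was 2 bp from that of WT. It had 37 reads over a background of 4.68 and a fold of 6.69. By fold it was 11th of 634 in the WT list and 126th of 174 in the bloto list, and by reads it was 86th and 74th. Ranks in lists of such different length do not show a change.

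**Figure D1:**
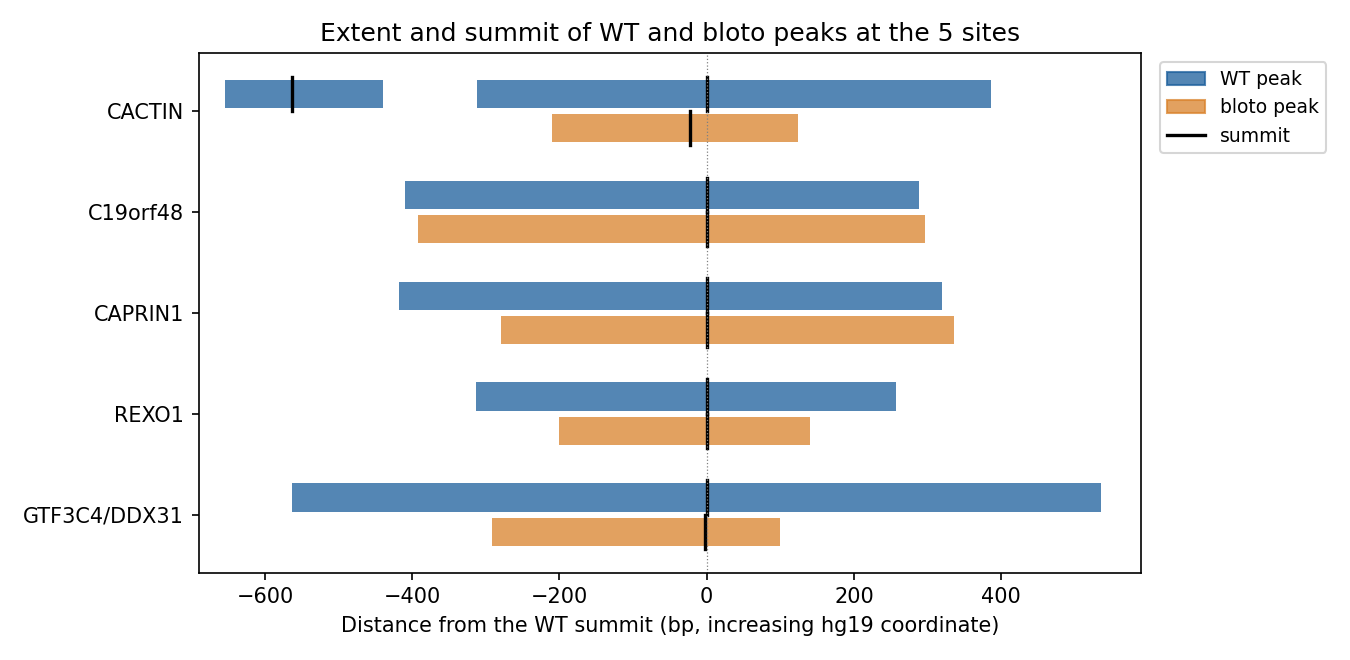
Horizontal bars give the extent of each WT (blue) and bloto (orange) peak in bp from the WT summit of its site, and black marks give the summits. The bloto summit lies within 2 bp of the WT summit at 4 sites and 23 bp away at CACTIN, where a second WT peak stands 563 bp from the main summit.

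The 5 sites had several features in common. All 5 main WT peaks overlapped a bloto peak, as did 26.2% of all WT peaks (166 of 634, exact Clopper-Pearson 95% interval 22.8% to 29.8%, counting error only). The 10 other peaks among the first 15 by WT fold each overlapped a bloto peak too, so this was not particular to the members. All 5 member peaks were at least 570 bp wide, a limit set by the narrowest of them, and 19.4% of WT peaks reached it. Those 10 other peaks were 561 to 1218 bp wide. Summits of the 2 forms lay at most 2 bp apart at 4 of the 5 sites, against 15.1% of the 166 shared sites, where the median distance was 18.5 bp. The bloto peak lay wholly inside the WT peak at 3 sites, against 82.5% of shared sites. Sites were chosen for strong WT enrichment, so nothing is read from these shares, and summit positions have no replicate error.

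Fold and reads ranked the members differently. The fold was read as the summit pile-up plus 1 over the local background plus 1, so a fold is smaller than the quotient of the reads printed here. In the WT list the ChIP pile-up was taken as first scaled by 0.856, a value fitted to the deposited fold and −log10 p. The WT background printed here is the input value divided by 0.856, to put it on the scale of ChIP reads. In the bloto list the input was taken as scaled down instead. The WT background was 1.65 to 1.89 reads at the 5 sites, against a median of 2.73 over all WT peaks and a genome-wide level of 1.27. Background and window are not among the deposited columns and were inferred from fold and −log10 p. The background was taken as the highest of the genome-wide level and of input reads counted in windows. On this reading, the WT background at 4 of the 5 sites came from a 10 kb window, with 97 to 111 input reads. This window set the background of 9.78% of WT peaks. At CACTIN it came from 10 input reads in 1 kb. For the same ChIP reads, a lower background gives a higher fold by construction.

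In the bloto list the members' backgrounds were less alike. They were 1.71 and 1.94 reads at CAPRIN1 and C19orf48, from 15 and 17 input reads in 1 kb. At REXO1, CACTIN and the divergent pair they came from input reads piled up at the summit itself, 3, 4 and 6 reads. The exact Poisson 95% interval, for counting error only, was 0.619 to 8.77 for the 3 input reads at REXO1 and 1.09 to 10.2 for the 4 at CACTIN. For the 6 input reads at GTF3C4 and DDX31 it was 2.20 to 13.1. Of the 19 other bloto peaks within 2 reads of the 37 at this divergent pair, 1 had a fold lower than its 6.69. Their folds ran from 6.19 to 12.9 with a median of 9.71. At equal depth the bloto background was above that of WT at 3 of the 5 sites and at 30.1% of shared sites. It was 2.49 times the WT value at the divergent pair, 1.71 times at CACTIN and 1.19 times at REXO1. These quotients set unlike windows side by side. At the pair, 6 input reads at the bloto summit stand against 103 in the 10 kb WT window, and at CACTIN 4 against 10 in 1 kb. The sites were chosen by WT fold, which a low WT background raises, so nothing is read from this count.

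**Figure D2:**
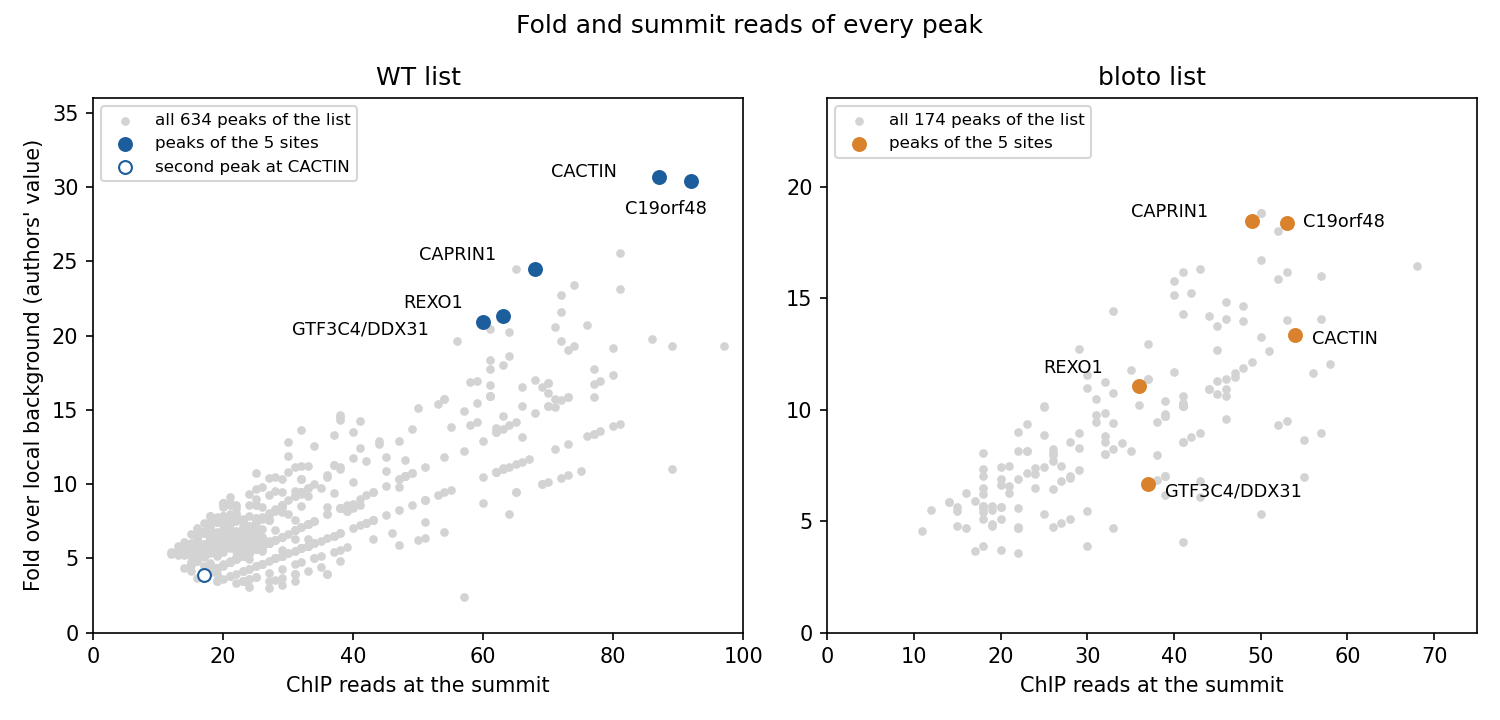
Each point is a peak, with the ChIP reads at its summit on the x axis and the authors' fold over local background on the y axis, for the WT list (left, 634 peaks) and the bloto list (right, 174 peaks). The 5 sites, in colour, lie along the upper edge of the WT cloud, whereas in the bloto list GTF3C4/DDX31, at a fold of 6.69 with 37 reads, lies along the lower edge.

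The bloto line had fewer reads than the WT line at each of the 5 summits. Bloto reads were divided by 1.07 to bring them to WT depth, and each list's local background was subtracted. The bloto to WT ratio was then 0.666 at CAPRIN1, 0.558 at CACTIN, 0.530 at C19orf48, 0.519 at GTF3C4 and DDX31 and 0.514 at REXO1. Ratios were below 1 at 5 of 5 sites and at 100% of the 166 shared sites, or 99.4% without scaling to equal depth. The median was 0.530 over the 5 sites and 0.539 over all shared sites, where the quartiles were 0.458 and 0.625, so 4 of the 5 members lay between them. Shared sites are the 166 of 634 WT peaks with a called bloto peak. WT peaks without one have no ratio, so these values do not describe the change over all WT peaks. CAPRIN1, at 0.666, was the 30th highest of 166.

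The counting error of these ratios is wide. Without subtracting the background, the ratio was 0.674 at CAPRIN1 (exact Clopper-Pearson 95% interval 0.457 to 0.987) and 0.580 at CACTIN (0.405 to 0.824). It was 0.538 at C19orf48 (0.377 to 0.763), 0.576 at the divergent pair (0.372 to 0.883) and 0.534 at REXO1 (0.344 to 0.817). The 5 intervals overlap one another, so the order of the members was not detectable at this depth. They cover reads of 1 library each and not the spread between clones or libraries.

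**Figure D3:**
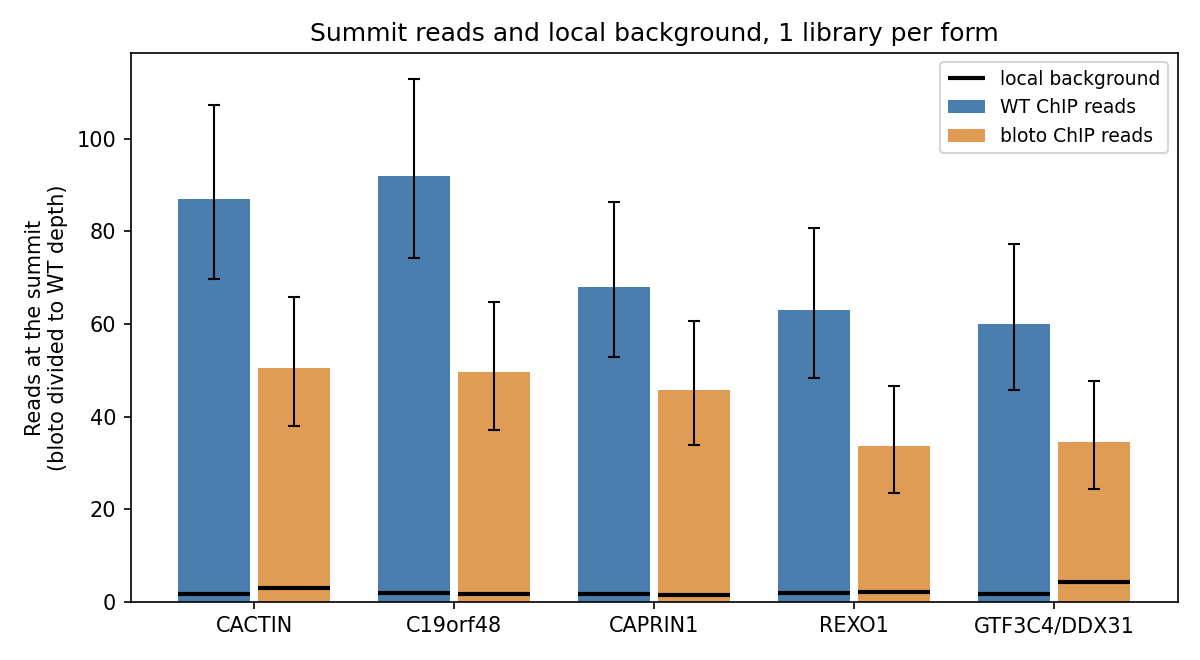
Bars give the ChIP reads at the summit of each site for WT (blue) and bloto (orange, divided to WT depth), thin lines the exact Poisson 95% intervals of counting error, and thick black marks the local background. The WT bars run from 60 to 92 reads and the bloto bars from 33.7 to 50.5.

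Read as a ratio of the authors' folds, the change spread much more between the members. It was 0.753 at CAPRIN1, 0.604 at C19orf48, 0.520 at REXO1, 0.435 at CACTIN and 0.320 at GTF3C4 and DDX31, and the median over all shared sites was 0.702. The bloto fold was below the WT fold at 5 of 5 sites and at 83.7% of the shared sites, where the ratio of folds reached 1.59. The WT fold, by which the sites were chosen, is the divisor of this ratio. Nothing is therefore read from the place of the members against the other shared sites. The value at the divergent pair lies below the counting interval of its read ratio. With the WT background subtracted from both lists, its read ratio was 0.564.

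**Figure D4:**
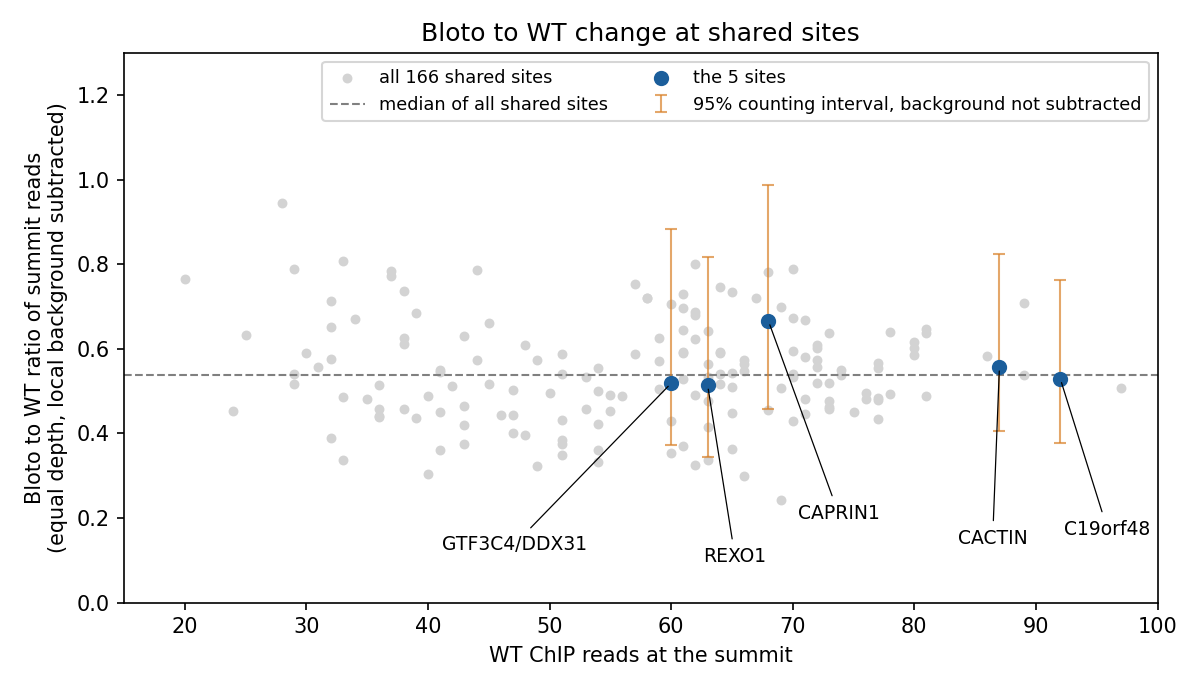
Grey points are the 166 shared sites, with WT reads at the summit on the x axis and the bloto to WT ratio of summit reads, at equal depth and after subtracting local background, on the y axis. The 5 named sites (blue, with 95% counting intervals of the unsubtracted ratio in orange) lie between 0.514 and 0.666, around the dashed median of 0.539.

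The peak between C19orf48 and CAPRIN1 in the WT order, chr2:231921198-231921758, was covered by 81 reads at a fold of 25.6, and that just after GTF3C4 and DDX31, chr17:47784667-47785884, had a fold of 20.7 with 76 reads. The 10 other peaks among the first 15 had folds of 20.3 to 25.6, 61 to 81 reads and widths of 561 to 1218 bp. Their bloto folds ran from 5.32 to 16.3, ranking 8th to 153rd, a range that holds the bloto folds of CACTIN, REXO1 and the divergent pair. The bloto folds of CAPRIN1 and C19orf48, at 18.5 and 18.4, lay above all 10. CACTIN and C19orf48, chosen as 1st and 2nd by WT fold, also had more WT reads than these 10, while over the whole WT list they were 5th and 2nd by reads.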

How the data were processed

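Anti-FLAG ChIP-seq peak lists of 3 samples were used, 1 list per ChIP library. The 3 inputs were not analysed here as files of their own. The antibody field of the bloto input names the FLAG antibody, and it was taken as an input from its title. The submitters' processing notes name build hg19, CASAVA 1.8.2 and cutadapt 1.4.1 beside BWA, MACS2 and SAMtools, and the peak caller's settings are not given in the sources here. Per peak, the authors deposited the summit, the fold, the p-value and the within-list q-value as −log10, and a score. The fold was read as a ratio, ChIP pile-up plus 1 over local background plus 1, with the WT ChIP pile-up scaled by 0.856. This form and the scale were inferred from the values. The score is 10 times the q column without its decimals. Coordinates count from 1.

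Summit reads and background were recovered as the whole read number at which fold and −log10 p both match a Poisson tail, within 0.0001 on the −log10 scale. This gave 1 read number for 634 of 634 WT and 174 of 174 bloto peaks, and was tested on simulated data. Local background was read as whole input reads over a 146 bp extension, 1 kb or 10 kb. Depth came from the genome-wide background and assumes 1 genome size in both lists. Peaks with 1 bp of overlap were called shared. Analyses used Python 3.11.15, numpy 2.4.6, pandas 2.3.3, scipy 1.17.1 and matplotlib 3.10.9. Members, words and lists were chosen with earlier results of these data known. The named genes are the 6 members, and neighbours in rank are named by position. Gene assignments are those of the stated intervals. RefSeq places 6 of 6 genes on the interval's chromosome.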

Additional observations from a re-analysis of the deposited data

How the results depend on the processing

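No paired analysis was possible because WT and bloto each have a single library, which also leaves no replicate to omit. The 5 read ratios stayed inside the counting intervals of the unsubtracted ratios without depth scaling and, in settings chosen after seeing the data, with the WT or the genome-wide background for both lists. Without background subtraction they were 0.534 to 0.674, which lies in those intervals by construction. The ratio of folds left its interval at GTF3C4 and DDX31 (0.320). Divided by the median over shared sites, which is another quantity, the ratios were 1.03 at CACTIN, 0.983 at C19orf48, 1.24 at CAPRIN1, 0.955 at REXO1 and 0.962 at the divergent pair. With 50% reciprocal overlap, 105 sites were shared, 3 of the 5 members among them. Ranking by −log10 p, reads or width moved 26 of 30 ranks by over 1.5 times. A −log10 q of at least 5 (added after seeing the data for the member counts) removed the second CACTIN peak. Distances to gene ends and counts of related pathway genes were not run, since no hg19 annotation was used here. Reads per summit limit each ratio as its interval shows.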
